A study of Mus musculus with 4 samples.

Results

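The 4 Janus kinases (Jak1, Jak2, Jak3 and Tyk2) and 5 of the STAT transcription factors they activate (Stat3, Stat4, Stat5a, Stat5b and Stat6) were examined in group 1 innate lymphoid cells (ILC1s) from mouse liver. They were taken by symbol from the deposited expression table, and all 9 were found among its 18804 genes. The table gives FPKM, a read count divided by gene length and by the size of its library. Levels can be compared between genes as far as the lengths used and the assignment of reads allow. Between libraries they are relative to all reads of the library, so a shift in other transcripts can move them. The libraries came from adult mice of 5 to 8 weeks at homeostasis. They form 2 groups of 2 libraries each: Cd200r knockout (replicates 1 and 2), lacking the inhibitory receptor CD200R by label, and WT (replicates 1 and 3). No label tells if 1 mouse or a pool gave a library, which strain was used or which exons were deleted, so p-values measure only the spread between these libraries and that spread may be technical.

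JAKs are tyrosine kinases held on the intracellular tails of cytokine receptors. When a cytokine brings receptor chains together, the JAKs phosphorylate each other and the tails, STATs dock there, are phosphorylated, pair up and move into the nucleus to switch on target genes. Group 1 innate lymphoid cells, which include natural killer (NK) cells, depend on interleukin-15, which signals through JAK1 and JAK3 to STAT5, and respond to interleukin-12, which signals through JAK2 and TYK2 to STAT4 and drives interferon-gamma.

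Inferred depth was 39136000 to 41127000 counted reads per library. Cd200r1 measured 110.7 and 103.7 FPKM in knockout and 161.5 and 173.3 in WT (log2 fold change −0.64, standard error 0.09, adjusted p = 0.00451 by limma). Its transcript was thus lower but not absent in the libraries labelled knockout, and the call was lost with no filter on low values or no mean-variance trend (adjusted p = 0.302 and 0.108). The 10 ILC1 and group 1 ILC markers were all detected, with a summed level of 6240 to 6389 FPKM in knockout and 7075 to 7271 in WT. Of these 10, 1 was called lower by limma, the targeted gene Cd200r1. An unadjusted p under 0.05 was seen for 4, all lower in knockout, beside 1468 of all 9476 genes tested, in either direction. Markers of other cells also differed between the groups. Of 9 conventional NK cell markers tested 8 rose in knockout (summed level 255.1 and 527.3 FPKM, against 84.4 and 79.3 in WT). Of 9 macrophage markers 6 rose, Adgre1, C1qa, C1qb, C1qc, Csf1r and Lyz2 (summed level of the whole list 617.4 and 919.2 against 234.7 and 219.4). Clec4f, Vsig4, Cd5l, Marco and the Kupffer cell gene Timd4, listed at 0 in WT replicate 1, were not among them. All 7 erythroid markers tested fell (12483 and 14027 against 24711 and 26811). For T cells, B cells, neutrophils and hepatocytes, 0 of 6, 0 of 4, 0 of 2 and 1 of 6 markers passed the limma test described next (3, 2, 2 and 3 at an unadjusted p under 0.05), and Mpo was listed at 0 in all libraries. The T cell markers had a summed level of 2124 and 2156 FPKM in knockout and 2373 and 2348 in WT, above that of the conventional NK markers in every library. How far RNA from these cells enters the JAK and STAT values was not tested, and in bulk RNA fewer cells of a type cannot be told apart from less RNA per cell.

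All 9 genes were expressed in every library, over a 31.4-fold range of mean FPKM. Jak1, the kinase shared by most of these receptors, was the most abundant in all 4 libraries, with a mean of 145.8 FPKM, above 96.9% or more of the genes in each library's table. Stat4 followed at 124.0 FPKM, then Stat6 at 78.4, Stat3 at 77.4, Jak3 at 33.5, Tyk2 at 17.6, Jak2 at 14.0, Stat5b at 6.49 and Stat5a at 4.64. The order was the same in both knockout libraries. It changed at 1 place each in the WT libraries, where Stat3 was above Stat6 in replicate 3 and Stat5a above Stat5b in replicate 1. Every other pair of neighbours kept its order in 4 of 4 libraries, the closest being Jak1 over Stat4 (1.12-fold to 1.24-fold) and Tyk2 over Jak2 (1.15-fold to 1.52-fold). The STAT5 transcripts together measured 9.49 to 13 FPKM, and Stat4 was 9.43 to 12.8 times that sum. Reads that match more than 1 gene limit these STAT5 and Stat4 levels, as described below.

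**Figure D1:**
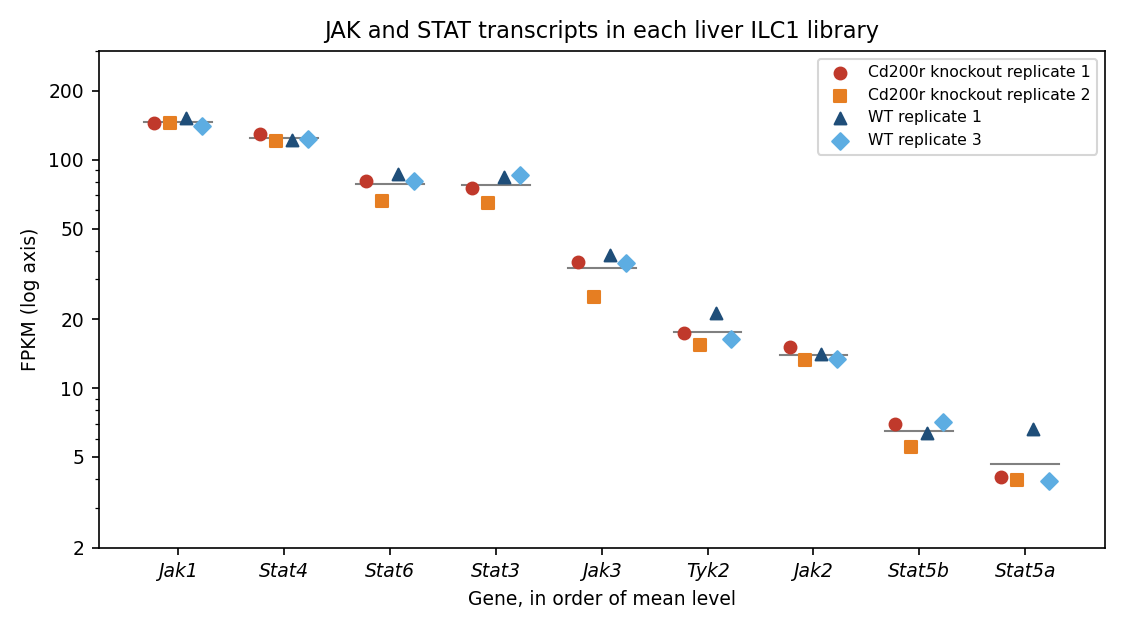
FPKM (log axis) of the 9 JAK and STAT genes, ordered by mean level, with 1 point per library and a grey line at the mean of all 4. Jak1 and Stat4 stand highest and the STAT5 genes lowest in every library, and the orange square of knockout replicate 2 is the lowest point for 7 of 9 genes.

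The comparison between genotypes asked whether loss of CD200R changed the amounts of these signalling transcripts. Of the 9 genes, 0 passed limma's moderated test on log2(FPKM + 1) at an adjusted p of 0.05, and 1, Stat3, had an unadjusted p under 0.05. The background is 3.33% of 9476 genes tested (1468 had an unadjusted p under 0.05), which for 9 genes is less than 1 gene, so a count of 0 does not set them apart. All 9 passed the filter on low values (a mean of at least 1 FPKM). Changes below are log2 fold changes, knockout minus WT, with their standard error (SE), and intervals are 95% intervals of that difference. Every one of the 9 intervals lay within a 2-fold change in either direction, as did 90.8% of the intervals of all genes tested.

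Among the kinases, Jak1 measured 145.1 and 144.5 FPKM in knockout and 152.5 and 141.0 in WT. The knockout values lay between the WT values, and the difference was −0.02 (SE 0.09, interval −0.22 to 0.18, adjusted p = 0.953). Jak1 had the narrowest interval of the 9 genes, allowing a level in knockout from 0.86 to 1.13 times that in WT. Jak2, which serves the interleukin-12 and interferon-gamma receptors, measured 15.1 and 13.3 FPKM in knockout and 14.0 and 13.5 in WT. Its groups overlapped, with a difference of 0.04 (SE 0.15, interval −0.29 to 0.37, adjusted p = 0.936).

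Jak3, the kinase bound to the common gamma chain, measured 35.5 and 25.0 FPKM in knockout and 38.3 and 35.2 in WT. Knockout replicate 2 was low and replicate 1 lay between the WT values, so the groups overlapped. The difference was −0.29 (SE 0.16, interval −0.64 to 0.06, adjusted p = 0.426) and depended on that library. It was −0.54 without knockout replicate 1 and −0.05 without knockout replicate 2. A fit without 1 library leaves 1 library in that genotype and measures no spread in it. Calls and p-values of such fits, given below, carry that limit. Of the 12 alternatives, those that used all 4 libraries gave no call for any of the 9 genes. Tyk2, the partner of JAK2 on the interleukin-12 receptor, measured 17.4 and 15.4 FPKM in knockout and 21.3 and 16.4 in WT. Here WT replicate 1 stood above the rest, and the difference of −0.18 (SE 0.16, interval −0.54 to 0.18, adjusted p = 0.655) was 0.00 without it.

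Among the STATs, Stat4, which carries the interleukin-12 signal, measured 129.4 and 121.1 FPKM in knockout and 122.6 and 123.0 in WT. The WT values lay between the knockout values, and the difference was 0.03 (SE 0.09, interval −0.17 to 0.23, adjusted p = 0.927). Its highest value was 1.07 times its lowest, the smallest spread of the 9 genes, and 1.70 times for Stat5a, the largest. Stat5a and Stat5b carry the interleukin-15 and interleukin-2 signals. Stat5a measured 4.07 and 3.96 FPKM in knockout and 6.64 and 3.91 in WT, a difference of −0.29 (SE 0.24, interval −0.82 to 0.24, adjusted p = 0.617). WT replicate 1 alone was high, and without it the difference was 0.03. Stat5b measured 6.95 and 5.54 FPKM in knockout and 6.36 and 7.11 in WT, a difference of −0.10 (SE 0.19, interval −0.53 to 0.32, adjusted p = 0.864).

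Stat3 and Stat6 were the members whose groups did not overlap. Stat3, used by interleukin-21, interleukin-10 and gp130 cytokines, measured 75.4 and 64.3 FPKM in knockout and 84.0 and 85.7 in WT. Both knockout libraries were below both WT libraries, and the difference was −0.28 (SE 0.11, interval −0.52 to −0.04, unadjusted p = 0.0252, adjusted p = 0.237). The adjusted p of Stat3 ranged from 0.0631 to 0.623 over 12 alternatives, and its difference was −0.39 without knockout replicate 1 and −0.17 without knockout replicate 2. Stat6, which carries the interleukin-4 signal, measured 80.5 and 66.0 FPKM in knockout and 86.3 and 81.0 in WT. Knockout replicate 1 was only just below WT replicate 3, and the difference was −0.20 (SE 0.12, interval −0.45 to 0.06, adjusted p = 0.464). Lower knockout values with no overlap were seen in 21.7% of all genes tested, and no overlap in either direction in 46% of them, so 2 of 9 genes is no excess.

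**Figure D2:**
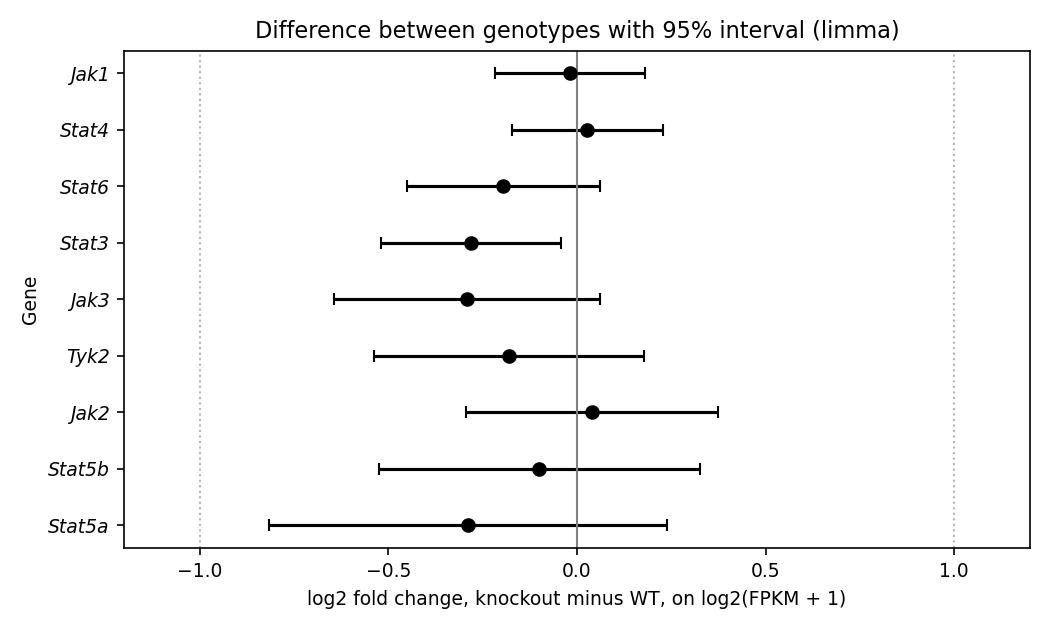
Log2 fold change, knockout minus WT on log2(FPKM + 1), of each gene (point) with its 95% interval from limma (bar). Dotted lines mark 2-fold changes. All 9 intervals lie within them, and the interval of Stat3, −0.52 to −0.04, is the one that does not include 0.

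The 9 genes were lower in knockout replicate 2 than in replicate 1 without exception, whereas 50.7% of all genes tested were. The median difference between these libraries was −0.17 on the log2 scale for the 9 genes and −0.00 for all genes tested. The largest gap was that of Jak3, at 0.704 times, and the smallest that of Jak1, at 0.996 times. The gaps of Jak1 and of Stat5a, at 0.972 times, were no larger than the counting error given below. Knockout replicate 2 was the lowest of the 4 libraries for 7 of the 9 genes (29.8% of all genes tested had their lowest value there). Over the genotypes, 7 differences were negative and 2 positive, with a median of −0.18 against 0.00 over all genes tested (8 negative and 1 positive with quantile normalization, where Stat4 was −0.04). These counts moved with the libraries used. Without WT replicate 1 they were 4 negative and 5 positive with a median of 0.00085, without knockout replicate 2 6 and 3 with a median of −0.05, without knockout replicate 1 9 and 0 with a median of −0.26, and without WT replicate 3 7 and 2 with a median of −0.24. Leaving out knockout replicate 2 put Stat3, Stat6 and Jak3 at −0.17, −0.05 and −0.05. Knockout replicate 2 also had the highest conventional NK and macrophage marker levels given above, and the part of those cells in the lower values was not tested.

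**Figure D3:**
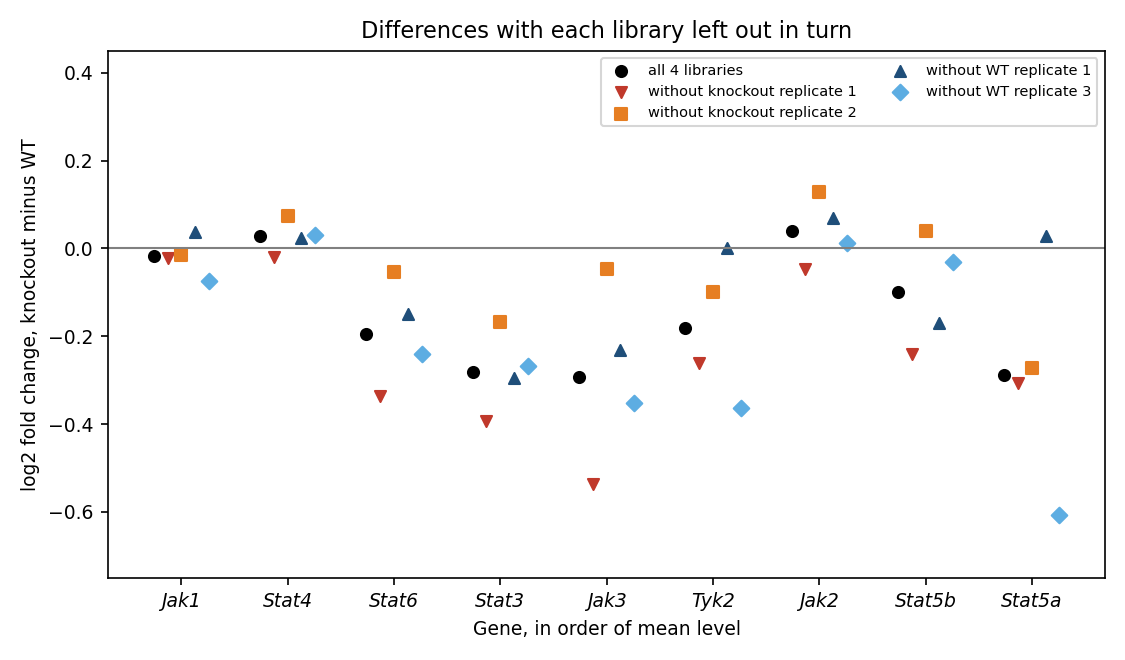
Log2 fold change, knockout minus WT, of each gene in all 4 libraries (black) and with each library left out in turn. Leaving out knockout replicate 1 (red) or replicate 2 (orange) moves Jak3 between −0.54 and −0.05, and leaving out WT replicate 1 (dark blue) brings Stat5a and Tyk2 to 0.03 and 0.00.

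Within the kinase family, group means of the shares differed by 2.57 percentage points for Jak1, −2.37 for Jak3, −0.72 for Tyk2 and 0.53 for Jak2, knockout minus WT. Jak1 gave 68.1% and 72.9% of the summed JAK FPKM in knockout and 67.4% and 68.5% in WT. Jak3 gave 16.7% and 12.6% in knockout and 17.0% and 17.1% in WT, Tyk2 8.15% and 7.78% against 9.42% and 7.94%, and Jak2 7.09% and 6.70% against 6.21% and 6.53%. The groups did not overlap for Jak2 and Jak3 (exact permutation p = 0.333 each, two-sided, the smallest that 2 against 2 libraries can give) and overlapped for Jak1 and Tyk2 (exact p = 0.667 each). The share of Jak3 differed by more between the knockout libraries than between the group means, and without knockout replicate 2 its difference was −0.35 percentage points. Among the 5 STATs, Stat4 gave 43.7% and 46.4% of the summed FPKM in knockout and 40.1% and 40.9% in WT, and Stat3 gave 25.5% and 24.7% against 27.5% and 28.5%. The ratio of Stat4 to Stat3 was thus 1.72 and 1.88 in knockout and 1.46 and 1.44 in WT, without overlap. The FPKM of Stat3 alone did not overlap either, nor did that of 46% of all genes tested. These STAT shares are given as a description with no test.

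**Figure D4:**
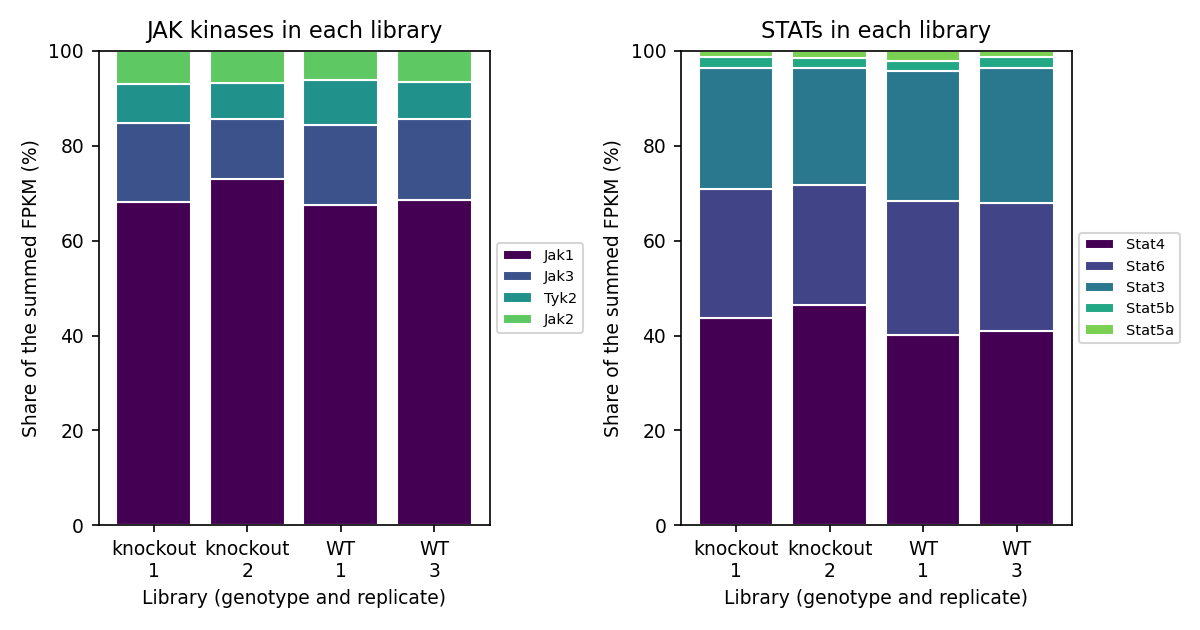
Stacked bars of the share (%) of each gene in the summed FPKM of the 4 JAK kinases (left) and of the 5 STATs (right), 1 bar per library. Jak1 takes 67.4% to 72.9% of the kinase sum and Stat4 40.1% to 46.4% of the STAT sum.

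Stat5a and Stat5b are near-identical copies, and their levels need the most care. Their coding sequences (GENCODE M21 on GRCm38) were identical at 90.8% of aligned bases, while the other pairs of STATs matched at 53.9% to 61.3% and the pairs of JAKs at 55.3% to 60.6%. The longest stretch without a difference ran for 324 bases, from coding base 571 to 894, counted from the A of the start codon. A read that falls within it cannot be assigned to either gene, and its first 90 bases are shown because both genes carry them letter for letter, at chr11:100874023-100874112 on the plus strand in exon 6 of Stat5a and at chr11:100798612-100798701 on the minus strand in exon 6 of Stat5b.

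Stat5a and Stat5b, coding bases 571 to 660: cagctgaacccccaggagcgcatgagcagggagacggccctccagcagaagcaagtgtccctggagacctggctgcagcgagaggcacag

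Coding bases 88 to 177 are the 90-base window with the most differences among those that align without a gap. They span the junction of exons 2 and 3 (chr11:100861425-100861769, plus strand, in Stat5a and chr11:100804978-100808436, minus strand, in Stat5b). Capitals mark the 28 bases that differ.
Stat5a: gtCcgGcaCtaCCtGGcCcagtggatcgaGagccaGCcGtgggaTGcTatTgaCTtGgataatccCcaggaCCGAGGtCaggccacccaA
Stat5b: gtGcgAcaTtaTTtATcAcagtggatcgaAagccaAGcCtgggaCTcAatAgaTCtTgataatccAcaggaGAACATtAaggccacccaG

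Of all 50-base windows of the Stat5a coding sequence 26.0% occurred in Stat5b transcripts, as did 11.6% of 100-base and 7.81% of 150-base windows. Neither the read length nor the treatment of reads that match both genes is stated in the sources used here. The split between the genes, their summed level and the ratio of Stat4 to that sum are therefore uncertain. The ratio of Stat5b to Stat5a was 1.71 and 1.40 in knockout and 0.959 and 1.82 in WT, with overlapping groups (exact permutation p = 1). No 50-base window of the coding sequences of Jak1, Jak2, Jak3, Tyk2, Stat3 or Stat6 occurred in a transcript of another gene. For Stat4, 38.3% of such windows occurred in Gm28177, an annotated transcript on the same strand that shares 1033 exon bases with it and was not analysed here. The level of Stat4 and its place in the order are uncertain for the same reason.

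Counting error was small for all 9 genes. From the exon lengths in GENCODE, Stat5a rested on about 1092 to 1869 reads per library and Jak1 on about 39891 to 43502. Counting alone would then give an error of 3.03% at the lowest value of Stat5a and 0.501% at that of Jak1. These errors were less than the gap between the WT replicates of Stat5a and between the knockout replicates of Jak3. For Stat5a and for Jak1, the gene's own error was not less than the gap between its knockout replicates. These reads carry no stated molecular identifiers, so the counting error covers counting only.

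The genes lie on 7 chromosomes (RefSeq, GRCm38.p6). Of the STATs, 3 form a cluster on chromosome 11, Stat5b (Entrez 20851) at 100780731 to 100859004, Stat5a (20850) at 100859351 to 100885169 and Stat3 (20848) at 100886806 to 100939594. By mean FPKM Stat3 was 16.7-fold above Stat5a, while Stat5b and Stat5a, 346 bases apart, lay next to each other in level. In GENCODE the ends of Stat3 and Stat5a overlap by 72 exon bases on opposite strands, 1.01% of those of Stat5a, and a kit that does not mark strand cannot separate reads there. Stat4 (20849) lies on chromosome 1 at 51987106 to 52107189 and Stat6 (20852) on chromosome 10 at 127642955 to 127660987. Jak1 (16451) lies on chromosome 4 at 101151974 to 101265282, Jak2 (16452) on chromosome 19 at 29251803 to 29313095, Jak3 (16453) on chromosome 8 at 71676383 to 71690577 and Tyk2 (54721) on chromosome 9 at 21104068 to 21131393. Of the exon bases of Jak3, 7.55% are shared with Insl3, which measured 0.207 to 0.743 FPKM against at least 25.0 for Jak3. Tyk2 shares 8.07% of its exon bases with 1700084C06Rik on the opposite strand. That gene is absent from the deposited table, so its level is unknown here.

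The rest of the pathway was read from lists of 91 other genes by role, of which 72 passed the filter on low values. Of these, 3 rose and 0 fell, against a background of 2.4% of all genes tested that were higher and 0.939% that were lower. At an unadjusted p under 0.05 there were 10 higher and 7 lower, beside 1468 of all 9476 genes tested, in either direction. Their median log2 fold change was 0.01, beside 0.00 for all genes tested.

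The genes that rose were Il18rap and Il18r1, the chains of the interleukin-18 receptor and listed as STAT4 targets, and Usp18, an interferon-induced inhibitor that displaces JAK1 from the type I interferon receptor. Il18rap measured 39.0 and 43.3 FPKM in knockout and 26.3 and 21.7 in WT (0.76, SE 0.13, adjusted p = 0.0114). Il18r1 measured 5.21 and 7.96 FPKM against 2.74 and 2.59 (1.03, SE 0.23, adjusted p = 0.0358). Usp18 measured 25.7 and 24.0 FPKM against 13.9 and 16.0 (0.70, SE 0.14, adjusted p = 0.0216). Knockout libraries were above WT libraries for all 3, with no overlap, which adds nothing to a call made on the same libraries. No overlap in either direction was seen in 46% of all genes tested. The calls were not robust: without WT replicate 1 only Il18rap passed, and without WT replicate 3 only Usp18, and none of the 3 passed with no filter on low values or no mean-variance trend. Il18r1 was 0.76 without knockout replicate 2 (adjusted p = 0.178) and passed in 5 of 11 alternatives. Conventional NK markers, given above, were higher in the same libraries, and their part was not tested.

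None of the other STAT4 targets passed. Irf1, a transcription factor of the interferon response, measured 179.3 and 169.9 FPKM in knockout and 232.0 and 211.9 in WT (−0.34, SE 0.09, adjusted p = 0.0728). It passed with quantile normalization (−0.41, adjusted p = 0.0402) and was −0.38 without knockout replicate 1 and −0.30 without knockout replicate 2. Of 7 STAT4 targets tested 2 rose, 0 fell and 5 did not pass, beside 2.4% higher and 0.939% lower among all genes tested, and nothing particular to so short a list is read from this.

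Targets of the other STATs gave no call by limma. The background for an unadjusted p under 0.05 is 1468 of all 9476 genes tested. Of 13 STAT5 targets 0 passed (4 at an unadjusted p under 0.05), and the named genes differed in sign. Pim1, a survival kinase, measured 10.8 and 11 FPKM in knockout and 18.4 and 15.4 in WT (−0.59, SE 0.16, adjusted p = 0.0777). Socs1, a feedback inhibitor of JAKs, measured 118.8 and 113.9 against 89.6 and 91.9 (0.35, SE 0.09, adjusted p = 0.0723), and Il2ra, the interleukin-2 receptor alpha chain, 3.34 and 3.70 against 1.64 and 2.23 (0.63, SE 0.22, adjusted p = 0.183). The groups did not overlap for these 3 genes, nor for 46% of all genes tested. Of 6 STAT3 targets 0 passed (1 at an unadjusted p under 0.05), with Fos (0.34, SE 0.10), Socs3 (0.45, SE 0.22) and Hif1a (0.27, SE 0.16) having the smallest p. Fos was 0.44 without knockout replicate 2 and 0.25 without knockout replicate 1. Of 4 STAT6 targets 0 passed (1 at an unadjusted p under 0.05), with Chil3 at 0.53 (SE 0.22) and Gata3 at −0.31 (SE 0.15).

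Receptor chains for cytokines that signal through these kinases also gave no call. Of 32 listed 18 were tested and 0 passed by limma. At an unadjusted p under 0.05 there were 5, 2 higher and 3 lower, beside 1468 of all 9476 genes tested. Both chains of the interleukin-12 receptor had lower values in knockout without overlap, as did 21.7% of all genes tested. Il12rb1, which binds TYK2, measured 38.3 and 32.4 FPKM in knockout and 43.0 and 43.5 in WT (−0.29, SE 0.12, adjusted p = 0.286), and Il12rb2, which binds JAK2, 16.0 and 15.0 against 18.8 and 21.5 (−0.35, SE 0.14, adjusted p = 0.266). Neither passed, and Il27ra, the interleukin-27 receptor, was 0.21 (SE 0.10).

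Of the common gamma chain receptors, Il21r measured 121.0 and 96.9 FPKM in knockout and 140.8 and 142.3 in WT (−0.38, SE 0.11, adjusted p = 0.111) and Il4ra 34.1 and 20.5 against 34.2 and 37.7 (−0.43, SE 0.20, adjusted p = 0.329). Knockout replicate 2 was the lowest library for both, as for Jak3. Their differences were −0.54 and −0.78 without knockout replicate 1, and −0.22 and −0.07 without knockout replicate 2. Of the interferon and interleukin-10 receptors, Ifngr1, the ligand-binding chain for interferon-gamma, measured 448.5 and 539.1 FPKM against 366.7 and 402.4 (0.36, SE 0.10, adjusted p = 0.101). It was 0.49 without knockout replicate 1 and 0.22 without knockout replicate 2. Ifngr2 (0.60, SE 0.27) and Il10rb (0.16, SE 0.09) did not pass. The gp130 and the beta common or homodimeric receptor lists left 1 tested gene each, Il11ra1 (0.34, SE 0.25) and Il3ra (−0.28, SE 0.23).

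Stat2 and Irf9, which join in the interferon-stimulated transcription complex, did not pass, at −0.11 (SE 0.15) and 0.12 (SE 0.10). Of 17 inhibitors tested, Usp18 rose, 0 fell and 16 did not pass, among them Ptprc, the phosphatase CD45, at 0.24 (SE 0.08, adjusted p = 0.183). Of 11 partners (adaptors, chaperones, nuclear import and coactivators) 0 passed by limma and 0 had an unadjusted p under 0.05, with Cdc37, a kinase chaperone, at 0.18 (SE 0.09), Nmi at −0.18 (SE 0.10) and Ncoa1 at −0.35 (SE 0.26).

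**Figure D5:**
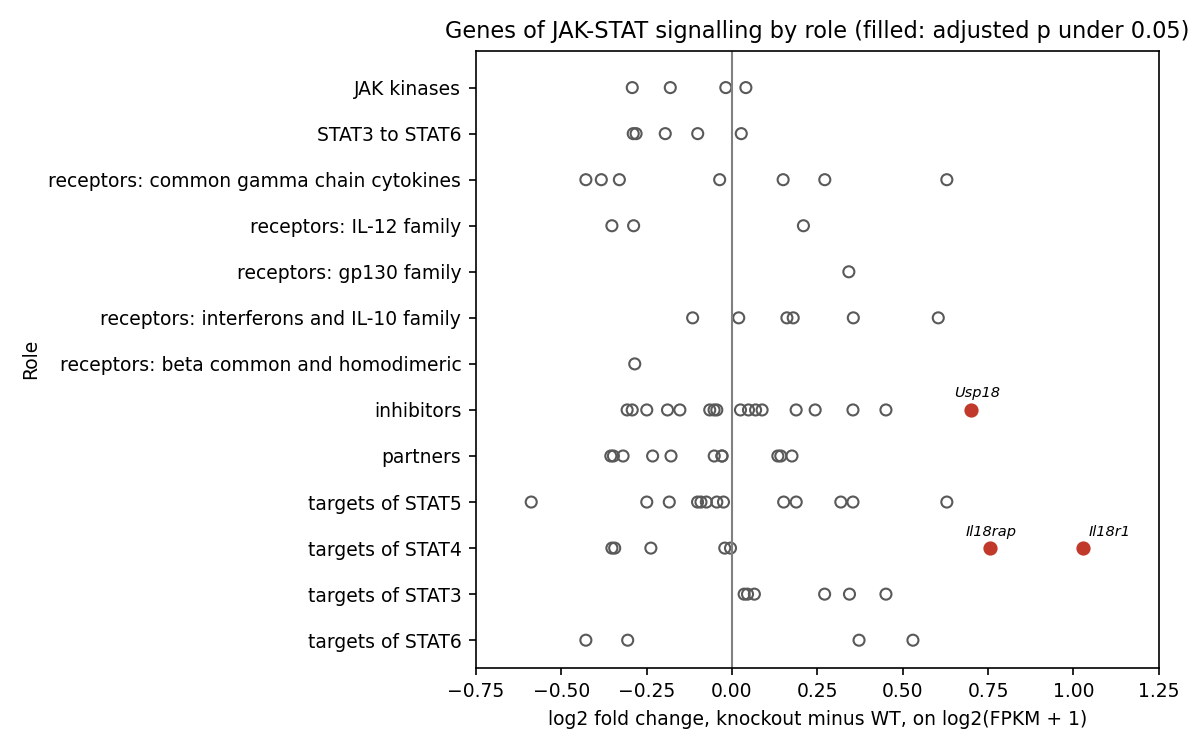
Log2 fold change, knockout minus WT on log2(FPKM + 1), of genes of JAK-STAT signalling, 1 row per role, for the members, receptors, inhibitors, partners and targets tested. Genes in 2 roles appear in both, and filled red points passed the test. Only Usp18, Il18rap and Il18r1 are filled, and the JAK and STAT rows at the top lie between −0.29 and 0.04.

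The deposited table itself assigns 126 genes to the KEGG JAK-STAT signaling pathway, all 9 members among them. Of these 78 were tested, 2 rose (2.56%, beside 2.4% of all genes tested) and 0 fell, so the count is near the background. They were Il4, the cytokine interleukin-4, and Cdkn1a, a cell cycle inhibitor, named here after their values were seen. Il4 measured 2.86 and 8.25 FPKM in knockout and 0.651 and 0.832 in WT (1.78, SE 0.35, adjusted p = 0.0197), and Cdkn1a 6.44 and 6.55 against 2.21 and 1.41 (1.43, SE 0.22, adjusted p = 0.00577). Il4 was uneven between the knockout libraries, and without replicate 2 it was 1.15 and did not pass (adjusted p = 0.0689). The same annotation places all 9 members in necroptosis and 8 of them in Th1 and Th2 cell differentiation, Stat3 being the exception.

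Because STATs act on palindromic DNA elements, the promoters were searched for 3 motifs on both strands. They were TTCNNNGAA, the element of most STAT dimers, the same ends with 4 bases between them, preferred by STAT6, and GAAA repeated after 2 bases, the core of the interferon-stimulated response element. RefSeq windows from 250 bases before to 50 after a start (GRCm38.p6) were found for all 9 members, 12 windows in all. The first element occurred in 0 of these 12 and in 8.30% of all 32851 windows, the second in 0 and in 6.95%, and the third in 1 and in 3.44%. The match lay 97 bases before a start inside the Stat4 gene. For the interleukin-18 receptor genes, which rose, the first element occurred at 219 and 152 bases before a start of Il18r1, and the second in windows of both genes. The site of the second in Il18r1 lies in overlapping windows of that gene. These genes were picked because they rose, and Il18r1 has several windows. Their matches therefore cannot be set against the shares per window or against the members. Usp18, which also rose, has no window in the table. Stat2, which did not pass, had the second and the third at 210 and 222 bases before its start. The stretches of Stat4 and the interleukin-18 receptor genes are shown with the motif in capitals, all on the plus strand of chromosome 1, and a match is not evidence of binding.
Stat4, response element core, chr1:52008135-52008160: tgtcttcaGAAAGTGAAAtttagaac
Il18r1, 3-base spacing, chr1:40465779-40465803: ggggttagTTCTGGGAActgtggag
Il18r1, 3-base spacing, chr1:40465846-40465870: tacaggtcTTCCCAGAActgaaagc
Il18r1, 4-base spacing, chr1:40465425-40465450: gccttcgtTTCTTTTGAAcagtttaa
Il18rap, 4-base spacing, chr1:40515187-40515212: agagagagTTCATCAGAAgaaagcct

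Genes with the pattern most like that of Stat3, the member with the smallest p, were sought among 6091 others with a mean of at least 5 FPKM. The measure was the distance between log2(FPKM + 1) values over the 4 libraries after centring each gene. The 3 nearest were Uba7, which encodes the enzyme that activates ISG15 (distance 0.0115), Itgb7, the integrin beta 7 chain (0.0116), and Il12rb1 (0.0145). Uba7 measured 153.2 and 129.5 FPKM in knockout and 169.6 and 172.4 in WT, and Itgb7 194.2 and 166.6 against 215.9 and 222.5. The 3 genes were picked for closeness to Stat3 over these 4 libraries. As follows from that choice, each was lowest in knockout replicate 2 and did not overlap between groups. No overlap was seen in 46% of all genes tested. None of the 3 passed the limma test (adjusted p = 0.204, 0.173 and 0.286). Uba7 and Itgb7 were −0.40 and −0.39 without knockout replicate 1. With 4 libraries such likeness is a description only.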

How the data were processed

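Liver ILC1 RNA was measured in 2 Cd200r knockout and 2 WT libraries. Per the labels' protocols, RNA was extracted with TRIzol, reverse transcribed and amplified for full-length mRNA by a kit meant for single cells, and made into libraries by a second kit. The authors deposited FPKM per gene; the submitters' processing notes name fastp, HISAT2, HTSeq, DESeq2, R 3.2.0 and mm10, with no role or order. Depth was inferred from the step between low values of 469 single-exon genes, using RefSeq lengths (73.3% to 75.5% of low values within 0.05 of a whole read).

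The 9476 genes whose mean reached 1 FPKM were tested as log2(FPKM + 1) with limma 3.58.1 (mean-variance trend, two-sided, no covariate) in R 4.3.3, with Benjamini-Hochberg adjustment over all of them. The script was tested on simulated data. Fold changes on this scale understate those of low genes. Coding sequences were aligned with Biopython 1.88. Named genes are Cd200r1, the members, up to 3 genes per pathway list with the smallest p, any listed gene past the threshold, and the 3 genes most like the member with the smallest p. Members and lists were chosen with earlier results of these data known. Gene symbols were used as deposited. Of the listed genes, 1 enters the counts but is not reported here. The other settings tried were 12, as given in the closing section.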

Additional observations from a re-analysis of the deposited data

How the results depend on the processing

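The count of 0 among the JAK and STAT genes was the same under each of the 8 other settings that used all 4 libraries, and ranged from 0 to 1 over the libraries left out. Directions turned for 6 of the 9 genes, among them Stat5a (−0.29 with all libraries) and Tyk2 (−0.18). Over the libraries left out, Jak1 ranged from −0.074 to 0.038, Jak2 from −0.047 to 0.13, Stat4 from −0.020 to 0.075, Stat5a from −0.61 to 0.029, Stat5b from −0.24 to 0.041 and Tyk2 from −0.36 to 0.00085, and Stat4 was −0.044 with quantile normalization. With no filter on low values limma called 0 genes in all, 0 pathway genes and 0 KEGG genes. Without the mean-variance trend it called 70, 0 and 1, and with a minimum mean of 5 FPKM 0 KEGG genes. Over the libraries left out, the counts ranged from 217 to 553 for all genes, 1 to 7 for pathway genes and 2 to 7 for KEGG genes, each highest without knockout replicate 1; the cause was not tested. The KEGG list was added after seeing the data. With quantile normalization the share of Jak2 in the JAK sum differed by 0.816 percentage points in place of 0.526. No scaling moved the median of all genes by more than 0.03 on the log2 scale. Over the named single genes, 471 values kept their direction and side of the threshold, 18 lost the call, 9 gained it and 7 reversed. The other settings were pseudocounts of 0.1 and 5, TPM, rescaling without haemoglobin and mitochondrial genes, and each library left out. No paired analysis was possible because the groups share fewer than 2 replicate numbers.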
